A study of Mus musculus with 22 samples.

Results

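The comparison covers 6 mouse liver tumours, 3 with an added model antigen and 3 without it, and asks how the antigen changed the transcriptome of tumours that lack p53. All 6 were driven by MYC together with loss of the tumour suppressor p53 and arose in C57BL/6 mice after plasmids had been delivered to hepatocytes by hydrodynamic tail-vein injection, a rapid large-volume injection. The 3 antigen-bearing tumours (label myc.lucOS.p53, here lucOS tumours 1 to 3) carried luciferase joined to model peptides that T cells recognise, and the 3 controls (label myc.luc.p53, here luc tumours 1 to 3) carried luciferase alone. They are 6 of the 22 tumours of the series and 6 of the 12 in the first of its 2 tables. That table also holds 2 lucOS and 4 luc tumours driven by MYC and activated β-catenin, which served to estimate the spread and to ask whether the antigen effect differed between drivers. The second table, scaled separately, holds 4 further tumours of MYC, lucOS and p53 loss, whose titles write sgp53, the usual shorthand for a guide RNA against p53. No tumour was treated. Age and sex are not given, and nothing in the labels says whether each tumour came from its own mouse, so p-values measure the spread between these tumour samples. Tumours were sampled after they had grown out, and transcripts of the injected constructs, the antigen included, were not analysed here.

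A hepatocyte that makes a foreign peptide displays it on MHC class I, where CD8 T cells can recognise it. T cells that are activated in this way release interferon gamma, which acts on neighbouring cells and raises peptide transporters, MHC molecules, guanylate-binding proteins and the chemokines CXCL9 and CXCL10. Sustained stimulation is accompanied by the inhibitory receptor PD-1, the product of Pdcd1, whose ligand PD-L1 is the product of Cd274. Wnt signalling through β-catenin is known for excluding T cells from some tumours, and in the normal liver it sets the programme of hepatocytes around the central vein.

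In the p53-deficient tumours no gene passed the test for a difference between lucOS and luc. Values are the authors' normalised read counts, and a gene was tested when its value reached 10 in at least 2 of the 12 tumours, which left 16108 of 24063 genes. With limma on log2(value + 1) and Benjamini-Hochberg adjustment, 0 genes had an adjusted p under 0.05 (0.0% of those tested), and the smallest adjusted p was 0.911, shared by 4 genes. At an unadjusted p under 0.05 there were 722 genes (4.48%), 361 of them higher in lucOS tumours (2.24%) and 361 lower (2.24%). The 3 lucOS values and the 3 luc values did not overlap for 745 genes on the higher side (4.63%) and 817 on the lower side (5.07%), together 1562 (9.7%). edgeR's quasi-likelihood test on the reads behind the values also called 0 genes, with 768 at an unadjusted p under 0.05. DESeq2 on the same reads called 9 of 15941 genes (0.0565%), all higher in lucOS tumours, and these are described below.

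The precision of the comparison was set by how much tumours of 1 group differed from each other. In the limma fit that spread was pooled over the p53 and the β-catenin tumours of the first table. Interval widths and p-values therefore do not reflect the p53 tumours alone. A fit of the p53 tumours alone had 575 genes at an unadjusted p under 0.05, against 722 in the pooled fit, and also called none. The 95% confidence interval of a difference reached 0.82 to either side on the log2 scale for the median gene, which is 1.77-fold, and 2.03 for the gene at the 90th percentile. The median absolute difference between the groups was 0.27, and the median within-group SD was 0.41 in lucOS and 0.36 in luc tumours. Pearson correlations of log2 values across genes were 0.920 to 0.939 for the 3 pairs of lucOS tumours and 0.938 to 0.955 for the 3 pairs of luc tumours. For the 9 pairs that cross the groups they were 0.908 to 0.970, and the highest of all pairs joined lucOS tumour 1 with luc tumour 3. Leaving out luc tumour 1 left 444 genes at an unadjusted p under 0.05, whereas leaving out lucOS tumour 3 gave 1263 and leaving out luc tumour 3 gave 1186. None of these smaller fits called a gene by adjusted p.

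Depth, in units of 1e6 reads summed over the 1 transcript used per gene, was 36.0 to 54.9 per tumour, with 17531 to 18310 genes detected. Luc tumour 1 stood apart: the ribosomal precursor transcript Rn45s took 8.90% of its reads in that sum and 1.22% to 2.04% in the other 5 tumours. Luc tumour 1 was also the lowest tumour in 21 of the 38 gene lists examined. Its part in the results was not tested beyond leaving it out. Albumin (Alb), the main hepatocyte plasma protein, lay between 105915 and 313384 in all 6 tumours, so each held hepatocyte-type RNA. Xist, the X-inactivation transcript, lay between 43718 and 78803, and the other 4 genes of the sex-linked list did not pass the filter.

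The genes of the injected combination and of tumour immunity gave overlapping groups throughout. Of 18 such genes 17 could be tested, 12 had a difference above 0 and 5 below it, and for 15 the 95% interval of the difference included 0. In none of the 17 did the 3 lucOS values all lie to 1 side of the 3 luc values. Trp53, which encodes p53, measured 1423, 1645 and 1923 in lucOS tumours 1 to 3 and 1669, 2280 and 1646 in luc tumours 1 to 3, a log2 difference of -0.16 (95% interval -0.63 to 0.31). Both groups carry the p53 loss and the labels of these tumours do not say how it was made, so this transcript does not check the labels. Endogenous Myc differed by 0.64 (-1.13 to 2.41) and Ctnnb1, the β-catenin gene, by -0.04 (-0.48 to 0.39).

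**Figure D1:**
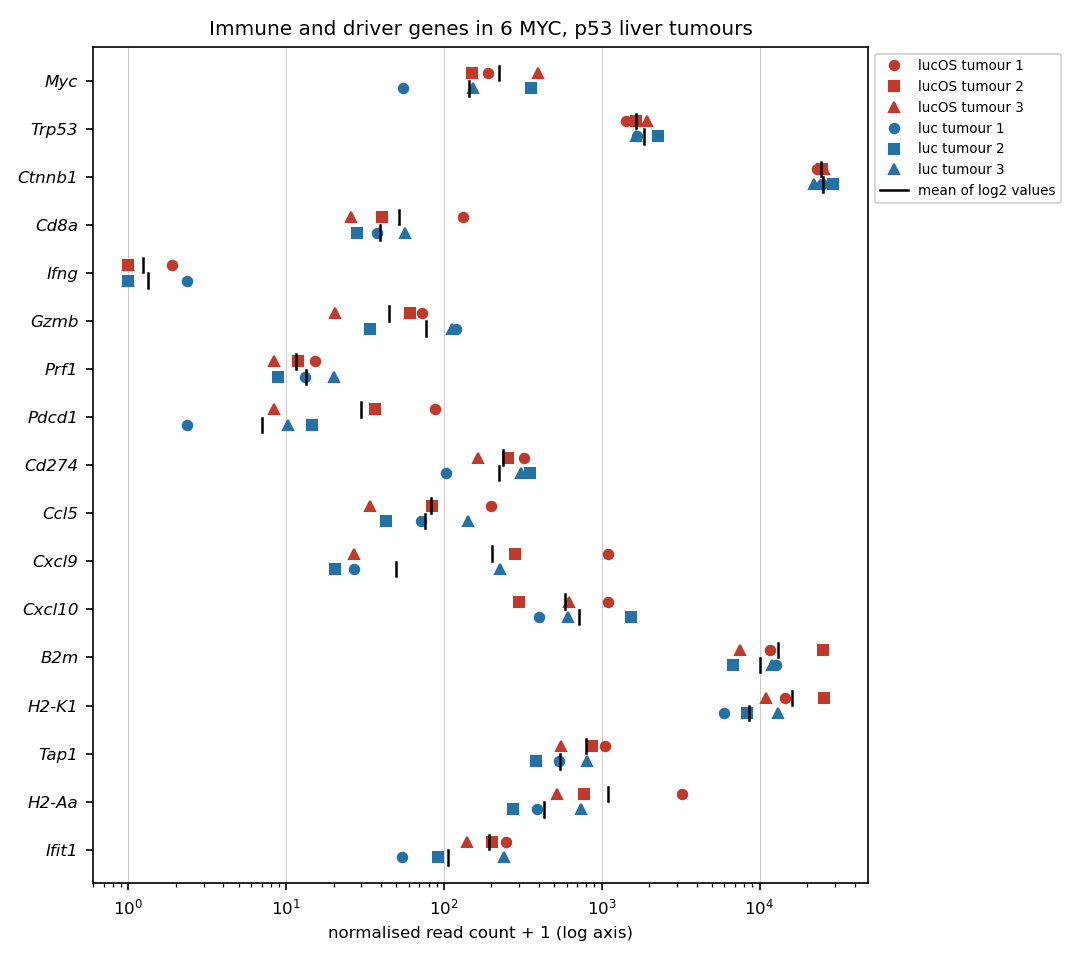
Normalised read count plus 1, on a log axis, of 17 driver and immune genes in the 3 lucOS (red, upper row of each gene) and 3 luc tumours (blue, lower row), with a black bar at the mean of the log2 values. The red and blue points of each gene interleave, and lucOS tumour 1 is the highest red point for Cd8a, Pdcd1, Ccl5, Cxcl9 and H2-Aa.

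Transcripts of T cells did not separate antigen-bearing from control tumours. Cd8a, the coreceptor of cytotoxic T cells, measured 131, 39.8 and 24.8 in lucOS tumours 1 to 3 and 36.7, 27.2 and 55.3 in luc tumours 1 to 3. Only lucOS tumour 1 lay above every luc tumour, and lucOS tumour 3 lay below all of them. The log2 difference was 0.41 with an interval of -1.17 to 1.98 (limma adjusted p = 0.976), and without lucOS tumour 1 it was -0.27. Of 24 T cell receptor and coreceptor genes 21 passed the filter. Among them 0 had an unadjusted p under 0.05 in either direction, 12 had a difference above 0 against 49.9% of all genes, and the median log2 difference was 0.22 against 0.00 for all genes tested. That median was -0.41 without lucOS tumour 1, -0.14 without luc tumour 1 and 0.39 without luc tumour 3. Fewer cells of a type and less RNA per cell cannot be told apart in these bulk samples.

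The killing machinery of T and NK cells gave the same picture of large spread. Granzyme B (Gzmb) measured 71.5, 59.7 and 19.3 in lucOS and 118, 32.9 and 111 in luc tumours, a difference of -0.78 (-2.30 to 0.74). Perforin (Prf1), which opens the target membrane, lay between 7.36 and 14.3 in lucOS and between 7.94 and 19.2 in luc tumours. Ifng itself gave 1 read in lucOS tumour 1, 1 read in luc tumour 1 and none in the other 4 tumours, below the level of 3 reads (2.31 to 4.07 in normalised counts), so no difference was detectable at this depth. Of 20 cytotoxic and NK cell genes 15 passed the filter, 7 of them with a difference above 0. The median of the 15 was -0.04 by limma and 0.33 by edgeR. Without lucOS tumour 1 it was -0.46, without luc tumour 2 -0.47, without lucOS tumour 3 0.55 and without luc tumour 3 0.53, so the list had no stable direction.

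Pdcd1 was the immune gene of the 18 with the largest difference. It measured 86.7, 35.8 and 7.36 in lucOS tumours 1 to 3 and 1.36, 13.6 and 9.22 in luc tumours 1 to 3. Of the lucOS tumours, 1 and 2 lay above all luc tumours, while lucOS tumour 3 lay within the luc range. The log2 difference was 2.09 (0.14 to 4.03), and it did not pass the test (limma adjusted p = 0.952). Cd274 differed by 0.09 (-1.17 to 1.34). Of 20 checkpoint and regulatory T cell genes 17 passed the filter, 15 with a difference above 0 and 1 of them, Pdcd1, with an unadjusted p under 0.05. Their median was 0.46, or 0.23 without lucOS tumour 1, 0.15 without luc tumour 1 and 0.78 without lucOS tumour 3.

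Genes of the interferon gamma response were the immune list with the most members at a low unadjusted p, but the tumours of both groups interleaved. All 22 passed the filter, 20 had a difference above 0, and 4 (Iigp1, Irf1, Nlrc5 and Irgm2) had an unadjusted p under 0.05 on the higher side against 2.24% of all genes. Iigp1, an immunity-related GTPase, was the 1 gene of the 22 whose groups did not overlap, a share near the 4.63% of all genes: 2862, 3459 and 1441 in lucOS against 297, 932 and 1302 in luc tumours, a log2 difference of 1.77 (0.35 to 3.18). Cxcl9, the T cell chemokine, measured 1092, 281 and 25.8 in lucOS and 25.8, 19.3 and 224 in luc tumours, a difference of 2.02 (-0.72 to 4.77). Here lucOS tumour 3 was no higher than luc tumour 1. Cxcl10, which binds the same receptor, measured 1089, 298 and 620 against 399, 1531 and 610, a difference of -0.30 (-1.68 to 1.08) that was 0.25 without luc tumour 2, 0.19 without lucOS tumour 2 and 0.03 with sample weights. Irf1, the transcription factor that carries the signal onward, measured 1806, 1511 and 1438 in lucOS and 763, 876 and 1523 in luc tumours, a difference of 0.65 (0.07 to 1.23, limma adjusted p = 0.952).

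Measured for each gene against its own mean over the 6 tumours, the interferon gamma list stood at 1.37, 0.44 and -0.33 in lucOS tumours 1 to 3 and at -1.36, -0.60 and 0.48 in luc tumours 1 to 3. Luc tumour 3 thus stood above lucOS tumours 2 and 3. The median log2 difference of the list was 1.11. It was 0.57 without lucOS tumour 1, 0.67 without luc tumour 1 and 1.72 without luc tumour 3. Type I interferon genes had 20 of 23 differences above 0 and a median of 0.54, or 0.33 without luc tumour 1 and 0.97 without luc tumour 3. Of the 23, only Irf9, a transcription factor of the interferon response, had an unadjusted p under 0.05, against 2.24% of all genes. It measured 1027, 1055 and 1152 in lucOS and 573, 735 and 952 in luc tumours. It was also the 1 gene of the 23 that did not overlap, a share near the 4.63% of all genes on the higher side.

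The promoters of 3 interferon genes are shown as examples that hold the elements through which interferons act. Each is the stretch of 250 bases before a RefSeq start on GRCm38.p6, written 5′ to 3′ on the gene's strand, with matches in capitals to the core of the interferon-stimulated response element (GAAA, 2 unspecified bases, GAAA) or to the gamma-activated site (TTC, 3 unspecified bases, GAA), on either strand. Ifit1 (chr19:34640639-34640888, plus strand) holds 2 matches to the first, Gbp2 (chr3:142620413-142620662, plus strand) holds 1 match to the first, and Irf1 (chr11:53769764-53770013, plus strand) holds 1 match to the second. A later Irf1 start in RefSeq has no match in its 250 bases, nor do the promoters of Cxcl9, Tap1 and Psmb9.
Ifit1: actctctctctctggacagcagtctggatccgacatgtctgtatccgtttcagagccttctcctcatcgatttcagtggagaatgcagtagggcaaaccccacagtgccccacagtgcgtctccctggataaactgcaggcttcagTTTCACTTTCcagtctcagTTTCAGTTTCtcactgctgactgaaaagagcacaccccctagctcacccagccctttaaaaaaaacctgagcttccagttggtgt
Gbp2: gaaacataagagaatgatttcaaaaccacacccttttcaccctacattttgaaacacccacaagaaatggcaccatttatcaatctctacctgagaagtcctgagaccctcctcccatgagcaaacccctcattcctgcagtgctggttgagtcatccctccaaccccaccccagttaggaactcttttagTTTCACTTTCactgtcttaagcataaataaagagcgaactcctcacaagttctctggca
Irf1: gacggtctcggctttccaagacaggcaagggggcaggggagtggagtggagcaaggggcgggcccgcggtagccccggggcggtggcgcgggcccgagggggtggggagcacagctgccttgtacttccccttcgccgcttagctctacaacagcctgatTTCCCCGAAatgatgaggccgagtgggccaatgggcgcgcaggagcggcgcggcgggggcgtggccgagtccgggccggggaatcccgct
In the longer RefSeq windows, 250 bases before to 50 after the start, 16 of the 22 interferon gamma genes had a promoter. Of these, 10 (62.5%) held the response element core and 8 (50%) the gamma-activated site, against 3.99% and 9.55% of 27025 genes with a promoter. Of 16 type I interferon genes with a promoter 9 held the first and 2 the second. A match is a description of the letters, and binding was not measured.

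Most genes of antigen presentation on MHC class I had a difference above 0 without passing the test, and the groups overlapped in the level of the list. H2-K1, a classical class I heavy chain, measured 14481, 25608 and 11034 in lucOS and 5919, 8310 and 13014 in luc tumours. The groups overlapped through luc tumour 3, and the difference was 0.89 (0.13 to 1.65, limma adjusted p = 0.952), or 1.86-fold. Reads of closely related class I genes cannot always be told apart, so the value of H2-K1 alone is uncertain. B2m, the shared light chain, lay at 7543 to 25330 in lucOS and 6797 to 12647 in luc tumours, and Tap1, part of the peptide transporter, differed by 0.54 (-0.39 to 1.47). Of 23 class I genes 18 had a difference above 0, and 2 (H2-K1 and Nlrc5) had an unadjusted p under 0.05 on the higher side, against 2.24% of all genes. Tapbpl, a peptide editor, H2-T22 and Tap2 did not overlap on the higher side (3 of 23, against 4.63% of all genes) and Psmb10, an immunoproteasome subunit, on the lower side (1 of 23, against 5.07%). The median of the list was 0.44, and it stayed between 0.34 and 0.56 when each tumour was left out in turn. Its levels by tumour overlapped, at 0.40, 0.48 and -0.18 in lucOS against -0.34, -0.45 and 0.09 in luc tumours.

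The level of the MHC class II list was dominated by 1 tumour, at 1.77 in lucOS tumour 1 and -0.86 to 0.14 in the other 5. H2-Aa, a class II chain of antigen-presenting cells, measured 3238, 769 and 517 in lucOS and 390, 275 and 743 in luc tumours. Cd74, the invariant chain, measured 15222, 2246 and 1328 against 1081, 850 and 2357. For both genes lucOS tumour 1 was far above every other tumour, and lucOS tumours 2 and 3 lay within or just above the luc range. The list had 11 of 12 differences above 0 and a median of 1.23, which was 0.42 without lucOS tumour 1. On the higher side 1 of the 12 had an unadjusted p under 0.05, against 2.24% of all genes, and 1 did not overlap, against 4.63%. Ciita, the activator of class II genes, followed the same order, at 512 in lucOS tumour 1 and 25.8 to 91.5 in the other 5 tumours.

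**Figure D2:**
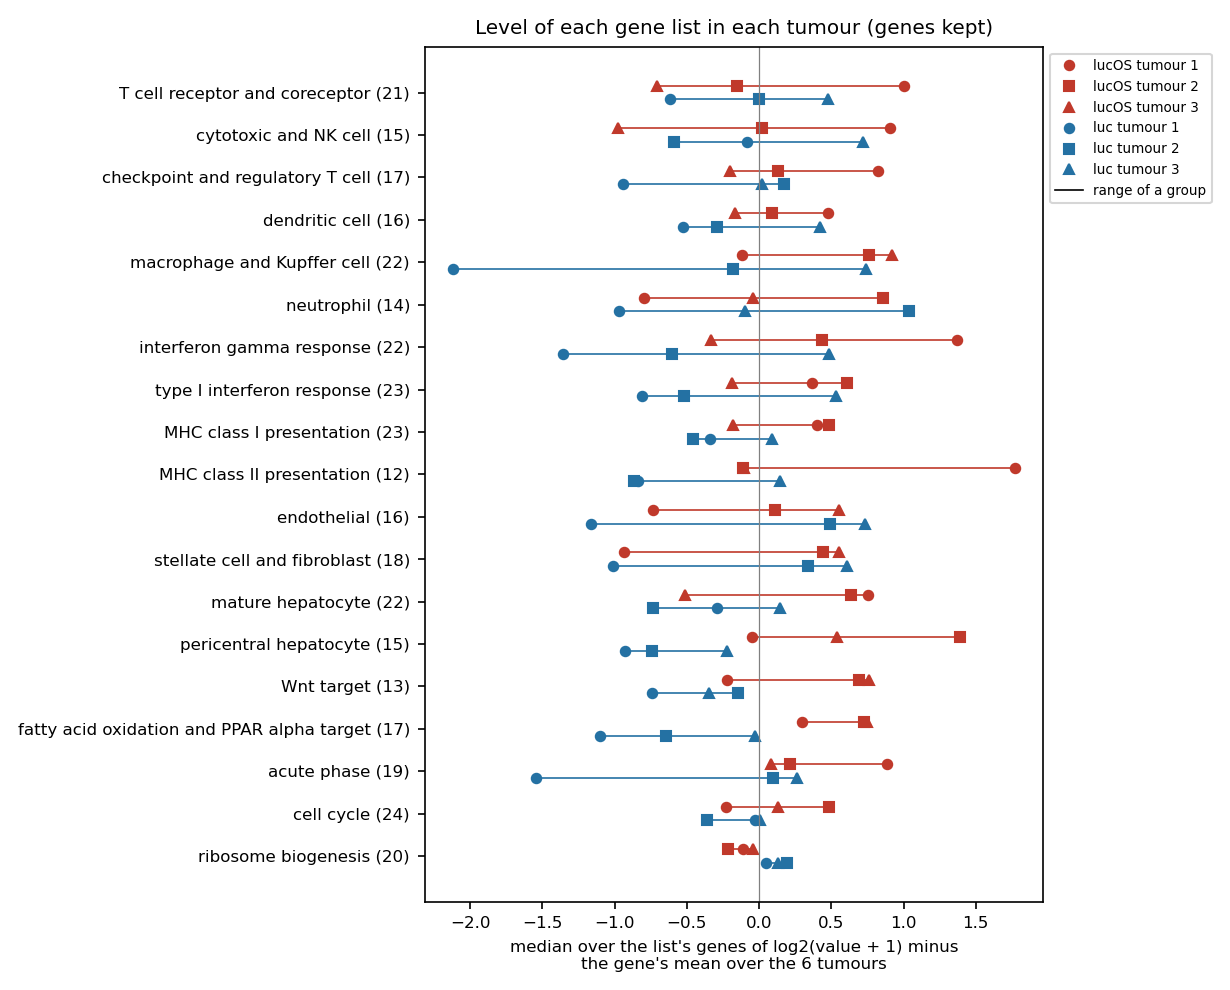
For 19 gene lists, the level in each tumour: the mean over the kept genes (number in brackets) of log2(value + 1) minus the gene's mean over the 6 tumours. The axis label says median, but the plotted values are means over genes. LucOS tumours are in red and luc tumours in blue, with a line over each group's range. Pericentral, fatty acid oxidation and ribosome biogenesis lists show ranges that do not overlap, and luc tumour 1 lies lowest for the macrophage list at -2.12.

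Macrophage genes mainly set luc tumour 1 apart from the others. Csf1r, the receptor that macrophages need to survive, measured 1959, 2006 and 1690 in lucOS and 333, 624 and 1907 in luc tumours, a difference of 1.35 (0.14 to 2.57, limma adjusted p = 0.952). Luc tumour 3 lay within the lucOS range. The 22 genes had 19 differences above 0 and a median of 1.05, which was 0.35 without luc tumour 1 and 1.68 without luc tumour 3. Clec4f, a marker of Kupffer cells, the resident liver macrophages, ranged from 4.47 to 1276 in lucOS and from 5.43 to 264 in luc tumours, so tumours within a group differed far more than the group means. The summed level of the list was 21521 to 29404 in lucOS tumours and 8914, 25625 and 23665 in luc tumours 1 to 3.

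Lists of other immune, vascular and stromal cells all had levels that overlapped between the groups. Dendritic cell genes had 9 of 16 differences above 0 and a median of 0.32, or 0.03 without luc tumour 1. Flt3, a receptor of dendritic cell precursors, did not overlap, at 30.4, 29.9 and 27.6 against 8.15, 7.94 and 18.4 (1.37, 0.26 to 2.49). It was the 1 such gene of the 16, against 4.63% of all genes on the higher side. Neutrophil genes had a median of -0.27, which was 0.41 without luc tumour 2, the tumour with the highest Il1b (312 against 22.9 to 69.3 in the other 5). NF-kB and inflammatory genes had 9 of 20 differences above 0 and a median of -0.10, which was 0.32 without luc tumour 2 and 0.08 without lucOS tumour 2. Il1b, an inflammatory cytokine, and Cxcl1, a neutrophil chemokine, were the 2 of these 20 with an unadjusted p under 0.05 on the lower side. Over all genes that share was 2.24%. Cxcl1 measured 895, 167 and 550 in lucOS and 955, 1611 and 1148 in luc tumours, which did not overlap. Endothelial genes had 6 of 16 differences above 0 and a median of -0.07, between -0.73 (without luc tumour 1) and 0.20 (without luc tumour 3). Stellate cell and fibroblast genes had 8 of 18 and a median of -0.03, or 0.0018 with TMM scaling, -0.59 without luc tumour 1 and 0.39 without lucOS tumour 1. Chemokine receptors had 13 of 15 differences above 0, with a median of 0.49 that was 0.22 without luc tumour 1. The 9 red blood cell genes with values had a median of -1.30, which was -0.58 without luc tumour 2 and -2.16 without lucOS tumour 2. Hba-a1 and Hba-a2 have identical values in every tumour, so they count as 1 measurement.

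Hepatocyte zonation genes held the list with the most members at a low unadjusted p. Hepatocytes around the central vein detoxify and make glutamine under Wnt control. Of the 15 pericentral genes all passed the filter, 14 had a difference above 0 and 5 an unadjusted p under 0.05 on the higher side, against 2.24% of all genes. Cyp2e1, which oxidises ethanol and small solvents, measured 2429, 2468 and 3896 in lucOS and 391, 1178 and 1292 in luc tumours. Every lucOS tumour lay above every luc tumour, and the difference was 1.76 (0.82 to 2.71, limma adjusted p = 0.952), or 3.39-fold. Axin2, a negative regulator and target of Wnt signalling, measured 29.5, 103 and 100 against 12.2, 19.3 and 14.6, a difference of 2.09 (0.80 to 3.37). Tbx3, a transcription factor downstream of Wnt in the liver, measured 424, 1050 and 160 against 151, 87.4 and 136. These 3 were the non-overlapping genes of the 15, against 4.63% of all genes on the higher side. The levels of the list by tumour (-0.05, 1.39 and 0.54 against -0.93, -0.74 and -0.22) did not overlap either. Of the 38 lists, 3 had higher levels in all lucOS tumours, 1 had lower levels and 34 overlapped. Over single genes the groups did not overlap for 9.7%. The median was 1.14, and it was 1.79 without lucOS tumour 1 and 0.71 without lucOS tumour 2.

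Other zonation and hepatocyte genes did not all stand on the same side. Glul, which makes glutamine around the central vein, differed by 0.61 (-0.48 to 1.70) and Oat, which works with it in that zone, by -0.42. Wnt targets had 9 of 13 differences above 0. Axin2 and Notum, a secreted Wnt inhibitor, were the 2 with an unadjusted p under 0.05 on the higher side, against 2.24% of all genes. The median of the Wnt targets was 0.84, but Lef1 (-0.65) and Tcf7 (-0.24), Wnt-responsive transcription factors, lay on the other side of 0. The median was 1.51 without lucOS tumour 1 and 0.41 without lucOS tumour 2. Levels of the Wnt list by tumour overlapped, at -0.22, 0.69 and 0.76 in lucOS against -0.74, -0.14 and -0.34 in luc tumours. Axin2 and Lgr5 are on both the Wnt and the pericentral list, and Tcf7 is also on the T cell receptor and coreceptor list, so the lists are not independent. Periportal genes, the opposite zone, had 8 of 13 differences above 0 and a median of 0.23, which was -0.07 without lucOS tumour 2 and -0.30 without luc tumour 2. Mature hepatocyte genes had 17 of 22 differences above 0 and a median of 0.19, which was 0.0044 without lucOS tumour 1, 0.05 without luc tumour 2 and 0.56 without lucOS tumour 3. Their levels by tumour overlapped (0.75, 0.64 and -0.51 against -0.29, -0.73 and 0.15).

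All 17 fatty acid oxidation and PPAR alpha targets had a difference above 0. The median was 0.77, and 4, among them Ppara, Cyp4a10 and Cyp4a14, had an unadjusted p under 0.05 on the higher side, against 2.24% of all genes. The groups did not overlap for 2 of the 17, against 4.63%. Cyp4a10, an omega-hydroxylase of fatty acids, measured 36.6, 114 and 494 in lucOS and 1.36, 2.27 and 20.0 in luc tumours. The difference was 4.56 on the log2(value + 1) scale (2.58 to 6.55), and DESeq2 gave an adjusted p of 0.00052. Cyp4a14, its neighbour in the same family, overlapped: 24.1, 421 and 1759 against 5.43, 7.94 and 58.4. Cyp4a genes are close copies of each other, so their separate values are uncertain. The levels of the list by tumour did not overlap (0.30, 0.72 and 0.75 against -1.10, -0.64 and -0.03), and its median without luc tumour 1 was 0.57.

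Lipid synthesis and the acute phase response went in the same direction with fewer members past the unadjusted threshold. Of 18 fatty acid and sterol synthesis genes 16 had a difference above 0, with a median of 0.40. Their summed level was 190063 to 327162 in lucOS and 153211 to 179602 in luc tumours. Their levels by tumour overlapped, at 0.50, 0.49 and -0.23 against -0.28, -0.38 and -0.11. An unadjusted p under 0.05 on the higher side was found for 2 of the 18, against 2.24% of all genes. On that side 2 of the 18 did not overlap, against 4.63%. Sqle, an enzyme of cholesterol synthesis and 1 of the 2 by p, measured 3485, 7837 and 4925 in lucOS and 2515, 3748 and 2368 in luc tumours. Acute phase genes, which hepatocytes induce in inflammation, had 16 of 19 differences above 0, and their median of 0.84 was 0.29 without luc tumour 1. Of these 19, 3 had an unadjusted p under 0.05 and 2 did not overlap, all on the higher side, against the same shares of all genes. Serpina3n, a protease inhibitor, measured 11320, 10255 and 10438 in lucOS and 402, 5382 and 6186 in luc tumours.

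Ribosome biogenesis was the 1 list of 38 whose levels by tumour lay lower in all 3 lucOS tumours. Of single genes 5.07% did so. Its genes make and assemble ribosomal RNA and are classical MYC targets. Of 20 genes 19 had a difference below 0, against 50.1% of all genes, and 7 did not overlap on the lower side (5.07% of all genes), while 0 had an unadjusted p under 0.05. Npm1, a nucleolar chaperone, measured 33258, 39573 and 38253 in lucOS and 55624, 55786 and 49880 in luc tumours, a difference of -0.54 (-1.21 to 0.13, limma adjusted p = 0.952). Ncl, a nucleolar protein of ribosomal RNA processing, measured 53385, 54463 and 54333 against 66342, 76199 and 65397. The median of the list was -0.26, between -0.31 and -0.19 when each tumour was left out. Cell cycle genes went the other way, with 22 of 24 differences above 0 and a median of 0.27, which was 0.09 without lucOS tumour 2 and 0.41 without lucOS tumour 1.

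The 24 genes with the lowest p-values, 12 in each direction, were taken from those with a group mean of at least 50 and no overlap between groups; by limma none of them was called. Wipf3 (chr6:54429603-54503768), which binds the WASP family of actin regulators, had the lowest p. It measured 441, 666 and 152 in lucOS and 44.8, 14.8 and 60 in luc tumours, a difference of 3.33 (2.09 to 4.58) or 10.1-fold, with an adjusted p of 0.911 by limma and 6.7e-06 by DESeq2. Ube2l6 (chr2:84798828-84810335), the enzyme that attaches the interferon-induced modifier ISG15 to proteins, measured 1839, 2259 and 1841 against 900, 975 and 1211. Its difference of 0.95 (0.56 to 1.34) was 1.93-fold, with the narrowest interval among the 9 genes called by DESeq2. Rdh16, a retinol dehydrogenase of the liver, measured 45.6, 89.6 and 81.9 against 16.3, 10.2 and 15.4, a difference of 2.26 (1.39 to 3.14). Ugt3a2, a sugar-conjugating enzyme of detoxification, measured 238, 169 and 305 against 8.15, 27.2 and 63.0, a difference of 3.18 (1.87 to 4.5).

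Of the other genes on the higher side, several act in liver metabolism and several have other or unnamed roles. Adh4, an alcohol dehydrogenase, lay at 303 to 965 in lucOS and 53 to 248 in luc tumours, and Pon1, a lipoprotein-bound esterase, at 257 to 754 against 38.6 to 243. Cyp4a31 lay at 69.7 to 283 against 12.5 to 45.3. Ccdc117, Zfp385a and Gm19757 completed the 12, with differences of 0.96, 1.05 and 1.97. DESeq2 called Wipf3, Rdh16, Ugt3a2, Ube2l6, Cyp4a10, Cyp4a14, Zfp385a, Gm19757 and Aox3, an aldehyde oxidase. For Aox3 the groups overlapped, at 72.4, 1826 and 400 in lucOS against 61.1, 64.7 and 84.5 in luc tumours, so that 2 tumours carried its difference.

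On the lower side, 2 of the 12 genes encode parts of the pyruvate dehydrogenase complex, which feeds pyruvate into the citric acid cycle. Pdha1, a subunit of its first enzyme, measured 3569, 3572 and 4393 in lucOS and 7705, 7513 and 6879 in luc tumours, a difference of -0.94 (-1.42 to -0.47, limma adjusted p = 0.952). Dld, the third enzyme, shared with other dehydrogenase complexes, measured 8391, 7960 and 7313 against 14370, 14794 and 10883. Gsto1, a glutathione transferase, had 898, 4009 and 2553 against 8386, 6131 and 6980, a difference of -1.76 (-2.67 to -0.86). RNA-processing genes were also among them: Srsf5, a splicing factor, at 11060 to 11774 against 17181 to 27496, the small nucleolar RNA host gene Snhg1 at 1376 to 2097 against 2875 to 4177, and Trmt1, a transfer RNA methyltransferase, at 3957 to 4998 against 6355 to 8255. Slc19a1, the reduced folate carrier, differed by -1.16, Impa2, an inositol monophosphatase, by -1.02, and Abcd4, a lysosomal vitamin B12 transporter, by -0.86. Comtd1, Bfsp2 and 1500012F01Rik made up the 12, with differences of -1.46, -2.25 and -1.26.

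These 24 genes were then looked up in the 4 MYC, lucOS, p53 tumours of the second table, which had no part in choosing them. Across 16069 genes found in both tables the median log2 difference between the lucOS p53 means of the tables was -0.06, although the tables were scaled separately and were not tested against each other. For all 12 genes of the higher side the median of the 4 tumours lay below the range of the 3 lucOS tumours above. For 7 of them it lay within the luc range and for 4 below it. Rdh16 lay at 4.56 to 16.6, Ugt3a2 at 4.56 to 66.7, Ube2l6 at 1022 to 1514 and Cyp2e1 at 12 to 479. Gm19757 is listed at 0 in all 4. On the lower side the median of the 4 tumours lay above the lucOS range for 11 of 12 genes, within the luc range for 3 and below it for 9. Snhg1 lay at 3275 to 4248 and Pdha1 at 3635 to 6491. In both directions the medians thus lay on the luc side of the lucOS range, except for Bfsp2, which lay within it. The 24 genes had been chosen because these same 3 lucOS values lay beyond the luc values. Further tumours would tend to lie nearer to luc through that choice alone, so these positions do not decide whether the differences recur. The second table has no luc tumours with p53 loss, so the antigen contrast could not be repeated within it.

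**Figure D3:**
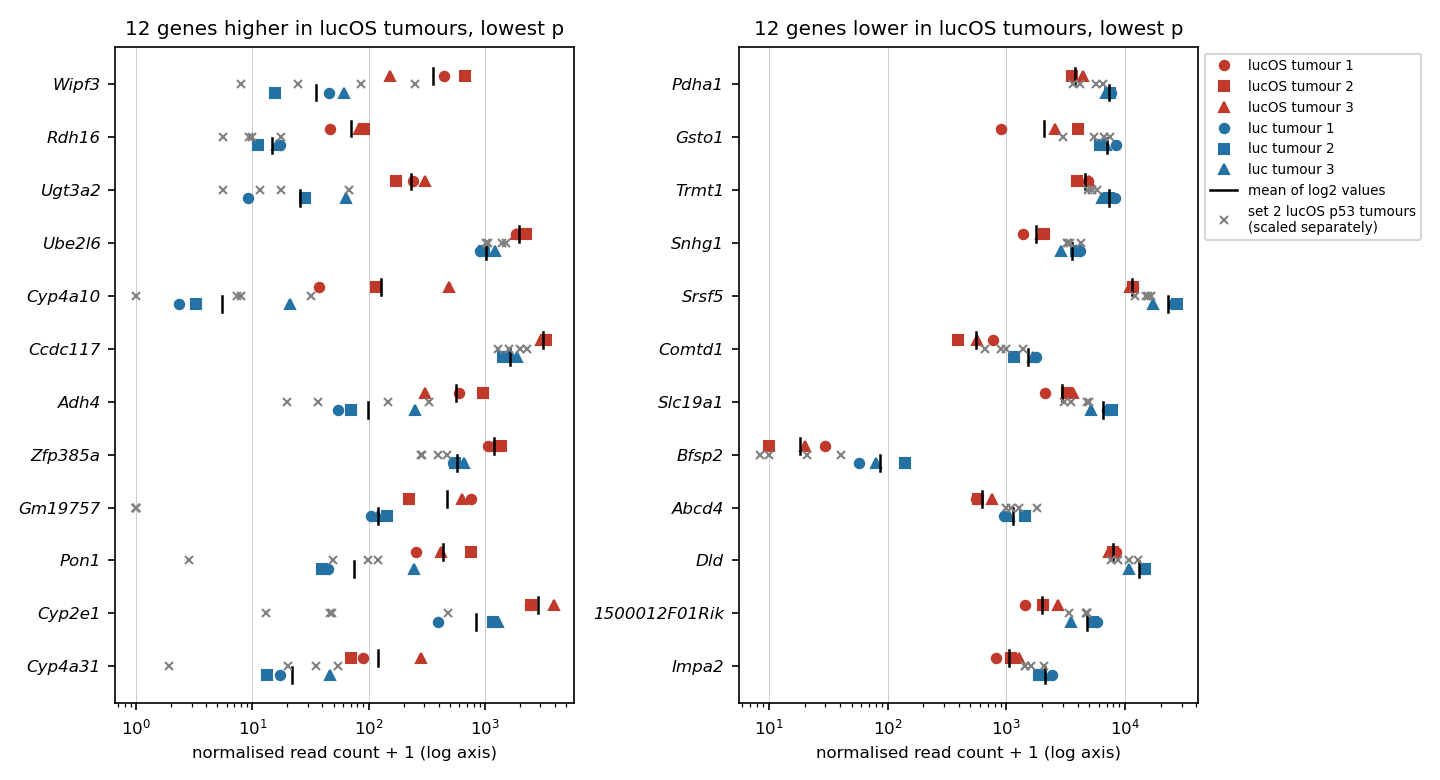
Normalised read count plus 1, on a log axis, of the 12 genes per direction with the lowest p among genes whose groups do not overlap, in the lucOS (red) and luc (blue) tumours, with black bars at the mean of the log2 values. Grey crosses are the 4 lucOS p53 tumours of the separately scaled second table, and in the left panel they lie mostly at or below the blue points, as for Rdh16 at 4.56 to 16.6.

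For 4 immune genes the same tumours are set beside the 3 lucOS tumours as examples. Cd8a lay at 92.7 to 187 against 24.8 to 131, Prf1 at 27.4 to 71.8 against 7.36 to 14.3, and Cxcl9 at 202 to 718 against 25.8 to 1092. Pdcd1 lay at 29.7 to 86.5 against 7.36 to 86.7. These values come from separately scaled tables and are set side by side only.

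The antigen effect with p53 loss did not differ detectably from that with β-catenin. In the interaction test, the lucOS minus luc difference of p53 tumours minus that of β-catenin tumours, limma called 0 of 16108 genes (0.0%), with 436 at an unadjusted p under 0.05 (2.71%), 252 of them positive (1.56%) and 184 negative (1.14%), and a smallest adjusted p of 0.973. edgeR called 0, with 595 at an unadjusted p under 0.05, and DESeq2 called 17 (0.107%), 15 of them positive. Only 2 lucOS tumours carry β-catenin, and the missing calls do not show that the effects were alike. For Rdh16 the interaction was 3.33 (2.05 to 4.61, limma adjusted p = 0.973), made of 2.26 in p53 and -1.07 in β-catenin tumours, and DESeq2 gave an adjusted p of 4.9e-05. Ube2l6 gave 0.90 (0.33 to 1.47), with 0.05 in β-catenin tumours. For the immune genes the intervals were wide, such as -1.80 to 3.87 around 1.03 for Pdcd1.

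The levels in β-catenin tumours place the p53 values. Rdh16 measured 292 and 425 in the 2 lucOS and 587 to 1167 in the 4 luc tumours with β-catenin, and Ugt3a2 measured 1982 and 1180 in the lucOS and 1396 to 3053 in the luc tumours. All of these exceed the highest p53 value of the same gene, 89.6 and 305. Axin2 reached 868 to 3586 over the 6 β-catenin tumours and at most 103 in p53 tumours. The lucOS p53 tumours with the higher values of these genes thus stayed below every β-catenin tumour.

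The 15 genes with the widest spread within groups, among those reaching 500 in some tumour, were chosen for that spread after their values were seen and are given as a description. Trim67, a brain-enriched ubiquitin ligase, measured 1989 in lucOS tumour 3 and 0.894 to 51.1 in the other 5. Igf2bp1, a fetal RNA-binding protein, measured 529 in lucOS tumour 3 and 0 to 19.3 elsewhere. Otx1, a homeobox factor, measured 947 and 362 in lucOS tumours 1 and 2 and 1.84 to 66.1 elsewhere, whereas Fmr1nb, a testis gene, was highest in luc tumour 1 at 1889. The tumours with the high values differed from gene to gene. Rasd2, a small GTPase, measured 5217, 17.9 and 2457 in lucOS and 1385, 4402 and 118 in luc tumours.

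**Figure D4:**
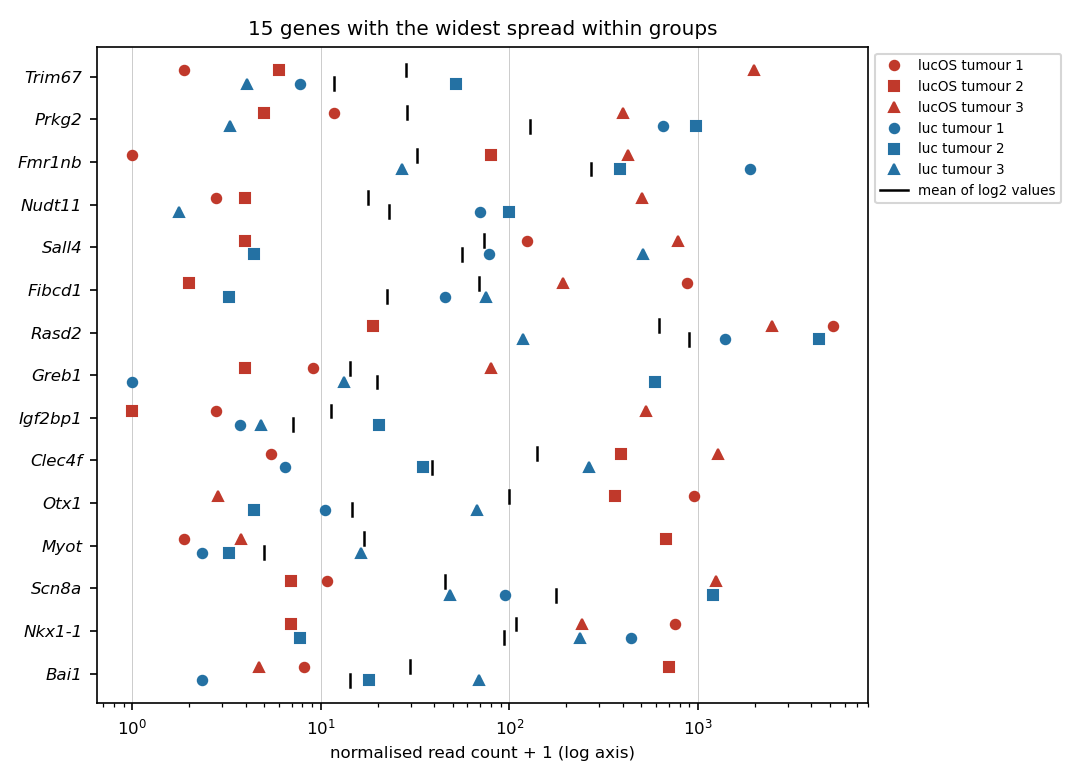
Normalised read count plus 1, on a log axis, of the 15 genes with the widest spread within groups, with lucOS tumours in red and luc tumours in blue. Points of the same colour lie far apart, as for Trim67 with 0.894 in lucOS tumour 1 and 1989 in lucOS tumour 3.

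Some lists of other lineages also spread widely within groups. Cdh16, a kidney-type cadherin, measured 463, 12.9 and 1828 in lucOS and 3909, 3134 and 500 in luc tumours, and the kidney-type list had the widest median within-group SD of all lists, 2.39. Its median difference of -0.77 was 0.03 without lucOS tumour 2. Dlk1, a fetal liver and progenitor gene, measured 269 in lucOS tumour 2 and 28243 to 75597 in the other 5 tumours. Lin28b, which blocks maturation of let-7 microRNAs in fetal cells, was lowest in the same tumour at 8.96 and reached 1843 in luc tumour 2. The alpha-fetoprotein gene Afp ranged from 22728 to 89114 in lucOS and from 9356 to 43285 in luc tumours. Targets of p53 had 10 of 22 differences above 0 and a median of -0.02 by limma and 0.01 with TMM scaling.

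The remaining lists are given with the range of their median when each tumour was left out in turn. Chemokines had 13 of 25 differences above 0 and a median of 0.06 (-0.47 to 0.32), or -0.17 by edgeR. B and plasma cell genes had 6 of 7 above 0 (median 0.24, -0.15 to 0.37), and ligands of NKG2D and death receptors 6 of 9 (0.07, -0.04 to 0.38). Collagen and matrix genes had 11 of 25 above 0 (-0.05, -0.60 to 0.31). Of the 25, 2 did not overlap on the higher side, against 4.63% of all genes. Fn1, fibronectin, was 1 of them, at 30922, 37466 and 60130 in lucOS against 10384, 25805 and 26724 in luc tumours. Glycolysis and hypoxia genes had 11 of 24 above 0 (-0.07, -0.35 to 0.10), fetal liver genes 8 of 19 (-0.20, -0.73 to -0.02) and bile duct genes 3 of 11 (-0.30, -1.03 to 0.32).

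Oxidative stress and endoplasmic reticulum stress kept the sign of their median in these fits. Oxidative stress genes had 12 of 14 above 0 and a median of 0.34 (0.27 to 0.55). Their levels by tumour did not overlap, at 0.44, -0.03 and 0.37 in lucOS against -0.54, -0.11 and -0.13 in luc tumours. Endoplasmic reticulum stress and ATF4 targets had 4 of 17 above 0 and a median of -0.34 (-0.47 to -0.13), with levels that overlapped. Mesothelium genes had 7 of 7 above 0 and a median of 1.63 (0.32 without luc tumour 1 to 2.40 without luc tumour 2). Of 10 acinar pancreas genes 2 passed the filter, with a median of -0.08 (-0.38 to 0.10) by limma and 0.06 by edgeR.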

How the data were processed

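RNA from 22 liver tumours was sequenced (Trizol total RNA and TruSeq libraries, per the labels' protocols). Of these, the 12 of the first table entered the fit and 4 of the second were looked up. Per the submitters' processing notes, TopHat2, featureCounts and DESeq2 were used with mm10, while versions, strand setting and annotation are not given in the sources used here, so overlapping and antisense genes cannot be told apart. The deposited values are signal: gene counts that the authors divided by a size factor per sample, and they came out as whole reads for 100% of values (tolerance 0.01 reads). Where a gene had several transcripts, the 1 with the highest mean was used. Genes that reached 10 in 2 or more of the 12 tumours were fitted with limma 3.58.1 (trend) on log2(value + 1), with 4 group means and contrasts for the antigen effect and its difference between drivers, and Benjamini-Hochberg adjustment over all genes. A gene is called at an adjusted p under 0.05. edgeR 4.0.16 and DESeq2 1.42.0 on the recovered reads were alternatives, as were other scalings, filters, pseudocounts, sample weights, and fits without each tumour. The fit was tested on simulated data. In the gene lists, 630 of 635 genes were found and 587 passed the filter. Genes named are 18 driver and immune genes, the 12 per direction with the lowest p among those without overlap and with a mean of at least 50, up to 3 per list by p with a mean of at least 10, and, chosen after their values were seen, the genes DESeq2 called, the 15 of widest spread, and other list members or defining markers given as examples. The members and lists were chosen with earlier results of these data known. Promoters are from RefSeq on GRCm38.p6. Results for a few genes are not reported here. R 4.3.3 and Python 3.11.15 were used.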

Additional observations from a re-analysis of the deposited data

Results flagged for a closer look

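Among the 4 lucOS tumours with p53 loss of the second table, 1 tumour lay far from the other 3 for 2 of 41 named genes checked. Myc measured 68.4 in that tumour and 121 to 130 in the others, and 1500012F01Rik measured 3403 in 1 tumour against 4700 to 4805 in the others. Chance alone marks about 1 in 20 such groups of tumours.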

How the results depend on the processing

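No alternative changed the count of 0 called genes in either comparison by limma or edgeR (0 to 0 without each tumour), but DESeq2 called 9 genes for the antigen effect and 17 for its difference between drivers. The cause was not tested. The count at an unadjusted p under 0.05 ran from 444 to 1263 for the antigen effect and from 311 to 1133 for the difference between drivers when each tumour was left out. The labels name nothing that pairs a lucOS tumour with a luc tumour, so the comparison was unpaired. Of 2364 values of 140 named genes under alternatives, 2318 kept their direction and side of the threshold, 9 crossed it (all by DESeq2) and 37, from 15 genes, changed sign. None of these 15 genes was called. With sample weights the log2 difference was -0.014 for Cd274, -0.12 for Cd79b, 0.0095 for Ctnnb1, 0.030 for Cxcl10 and 0.23 for Xist. By edgeR it was -0.0096 for Cd274, 0.15 for Cela1 and 0.011 for Xist. By DESeq2 it was -0.018 for Cd274, 0.15 for Cela1 and 0.0033 for Xist. For Xist it was 0.0013 with TMM scaling and 0.044 summed over transcripts. When each tumour was left out the range was -0.11 to 0.77 for B2m, -0.50 to 0.77 for Ccl5, -0.48 to 0.41 for Cd274, -0.14 to 1.27 for Cd4, -0.039 to 0.73 for Cd79b and -0.27 to 0.91 for Cd8a. It was -0.66 to 0.29 for Cela1, -1.59 to 0.14 for Cldn4, -0.14 to 0.060 for Ctnnb1, -0.74 to 0.25 for Cxcl10, -0.050 to 2.41 for Eda2r and -0.40 to 1.10 for Igj. It was -0.053 to 1.29 for Myc, -0.50 to 0.083 for Prf1 and -0.25 to 0.21 for Xist. Of 38 list medians 17 changed sign under at least 1 alternative.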
